A study of Mus musculus with 4 samples.

Results

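The mitochondrial ribosomal protein genes, whose symbols start with Mrpl for the large subunit series or Mrps for the small subunit series followed by a number, were measured in RNA of mouse hypothalamus. Every probe whose gene symbol fits that pattern was taken, without regard to its values. The array carried 105 such probes for 72 genes (44 Mrpl and 28 Mrps) among 25697 probes for 17916 genes. After a filter on detection, 100 of these probes and 69 of these genes remained, of 14199 probes and 10182 genes in all. Mrpl15, Mrpl21 and Mrps14 were not detected on any array and are not in the counts that follow, and Mrpl1 and Mrps10 each lost 1 probe but kept others. No probe was matched here to Mrpl41, Mrpl42, Mrpl44 or Mrps36.

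Mitochondria carry their own ribosome, which translates the few respiratory chain proteins that mitochondrial DNA still encodes. Its RNAs come from mitochondrial DNA, but all of its proteins are encoded in the nucleus, made on cytosolic ribosomes and imported. Many of these proteins descend from those of the bacterial ribosome, and others are found only in mitochondria. Neurons depend on respiration, so this machinery is needed throughout the brain.

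C57Bl/6J mice aged 12 weeks were compared in 2 groups of 2 samples. The Salt group had received 325 uL of 2 M NaCl and the Control group the same injection protocol with phosphate-buffered saline (PBS) as vehicle. In both groups water was withheld after the injection, the hypothalamus was taken 2 h later, and the time of day was about circadian time 6. Ribosomes were pulled down from the homogenate with an antibody against S6, a protein of the small cytosolic ribosomal subunit, phosphorylated at residues 244 and 247. This phosphorylation rises with neuronal activity, so the captured RNA (IP) is weighted towards the translated mRNA of active cells, and total RNA of the same homogenate (input) is its reference. The antibody reads cytosolic ribosomes, on which the mitochondrial ribosomal proteins themselves are made. Whether a sample was 1 animal or a pool is not given in the sources used here, and no antibody-free capture was analysed here. With 2 samples per group, p-values measure only the spread between these samples.

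An IP array and an input array were run for each sample, giving 8 Illumina BeadArrays. Median probe intensity was 143.3 to 161.9, and 12259 to 12705 probes were detected per input array against 13058 to 13808 per IP array. Of the 105 mitochondrial ribosomal protein probes on the array, before the filter, 94 to 100 were detected per array and 91 on every array. The tissue label was met by its markers: 10 of the 12 hypothalamic neuron genes listed (among them Avp, Oxt, Pomc, Agrp, Hcrt and Pmch) passed the filter, Kiss1 and Tac2 not.

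Promoters are shown first because nuclear genes for mitochondrial proteins are known for shared transcriptional regulators. A link between promoter sequence and capture was not tested. Of the 72 genes, 63 were matched by symbol to the RefSeq promoter table (GRCm38.p6), which gives 250 bases before and 50 bases after each start. Exact matches on both strands were counted for 3 motifs. They were the 10-base core site of the respiratory regulator NRF1 (the capitals of the Mrpl9 stretch below), the ETS letters CCGGAAG, bound by factors such as GABPA, and the YY1 letters (the reverse complement of the capitals in the Mrps11 stretch). The ETS letters stood in 24 of the 63 genes (38.1%), against 9.93% of the 27025 genes in the table and 12.9% of its 17492 protein-coding genes. The YY1 letters stood in 5 (7.94%, against 0.755% and 1.06%), and the NRF1 core in 3 (4.76%, against 1.07% and 1.47%). At least 1 of the 3 motifs was present in 30 genes (47.6%), against 11.3% of all and 14.9% of protein-coding genes. Median GC content was 58.7% in the 63 genes, 52.7% over all genes and 56.3% over protein-coding genes. The NRF1 core reads the same on both strands, and the ETS and YY1 letters could share 3 bases (AAG), which happened in 0 of these promoters. A match is a description of the sequence and not of binding.

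The stretches below are the 120 bases before the start of 5 of these genes, 5′ to 3′ on the strand of the gene, with the motif in capitals. Mrpl9 (chr3:94443216-94443335, plus strand) and Mrpl32 (chr13:14613038-14613157, minus strand) carry the NRF1 core and lay on opposite sides of 0 in capture. Mrps11 (chr7:78783011-78783130, plus strand) carries the YY1 letters on the opposite strand. Mrps22 (chr9:98601680-98601799, minus strand) and Mrpl52 (chr14:54426789-54426908, plus strand) show the ETS site in either orientation, and the other ETS match of Mrpl52 lies outside the stretch.
Mrpl9: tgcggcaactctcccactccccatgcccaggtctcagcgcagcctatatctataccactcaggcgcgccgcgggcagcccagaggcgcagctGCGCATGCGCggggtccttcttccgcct
Mrpl32: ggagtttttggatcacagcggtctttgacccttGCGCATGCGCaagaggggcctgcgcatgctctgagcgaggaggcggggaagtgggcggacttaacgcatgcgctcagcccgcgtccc
Mrps11: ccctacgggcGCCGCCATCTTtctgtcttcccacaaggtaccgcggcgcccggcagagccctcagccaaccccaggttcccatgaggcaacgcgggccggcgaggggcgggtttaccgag
Mrps22: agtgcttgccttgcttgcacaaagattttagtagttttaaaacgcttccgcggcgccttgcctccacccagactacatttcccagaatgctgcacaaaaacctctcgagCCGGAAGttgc
Mrpl52: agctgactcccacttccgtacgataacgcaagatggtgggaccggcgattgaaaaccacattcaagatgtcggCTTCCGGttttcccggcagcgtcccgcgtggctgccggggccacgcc

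In the Control group the question was which mRNAs the captured ribosomes held in a larger or smaller share than total RNA. Mitochondrial ribosomal protein mRNAs were lower in the IP than in the input as a group. The median of log2 IP minus log2 input over the 69 genes (1 probe per gene, the brightest) was -0.57, a 1.48-fold lower level, against -0.05 over all 10182 genes. Limma called 57 of the 100 probes lower and 1 higher at an adjusted p under 0.05, where over all probes 20.1% were called lower and 19.9% higher. By gene, 40 of 69 fell and 1 rose, against 20.9% of all genes lower and 19.4% higher. Among the calls is Mrpl32, which passed the filter through input arrays alone, so that the filter favoured its fall. Both control samples were below 0 for 63 of the 69 genes, against 4614 of all 10182 genes. In this bulk tissue, fewer cells of a type among those captured and less of an mRNA per cell cannot be told apart.

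The Salt group, with its own 2 samples and 4 arrays, gave a similar picture. Its calls are not independent of those in Control, since both groups shared 1 fit, its error estimate and the normalization. The median was -0.63, 1.55-fold lower, against -0.04 over all genes. Limma called 56 of the 100 probes lower and 1 higher, against 18.1% and 18.8% of all probes. By gene, 42 of 69 fell and 1 rose, against 18.6% of all genes lower and 18.2% higher. Mrpl32 is again among the calls, here and in the counts over both groups that follow. Both salt samples were below 0 for 62 genes, with 39.4% of all probes below 0 in both. All 4 samples of both groups were below 0 for 60 of the 69 genes. Of the 100 probes 83 lay below 0 in all 4 samples, against 34.2% of all probes, and 50 were called lower in both groups, against 14.7%. The 38 genes called lower in both groups are 95% of the 40 called in Control and 90.5% of the 42 called in Salt. Calls also recurred over the whole array. By probe, those called lower in both groups were 87.7% of the calls in Control and 89.3% in Salt for this set. Over all probes they were 73.0% and 81.0%.

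Sample by sample, the median over the 69 genes was -0.52 and -0.57 in the control samples and -0.57 and -0.66 in the salt samples, while that of all genes stayed between -0.06 and -0.01. Genes below 0 numbered 65 and 64 in Control and 63 and 66 in Salt, of 69. The spread within the set was wide, from -1.49 (Mrpl14) to 0.54 (Mrpl49) in Control and from -1.70 to 0.56, for the same genes, in Salt. Among genes called lower and detected in both IP and input, 8 in Control and 10 in Salt were at least 2-fold lower. By probe and without that condition on detection, 11 of the 100 in Control and 13 in Salt were called and at least 2-fold lower. Over all 14199 probes kept, 550 and 479 were. Mrpl32, detected on no IP array, has only a bound. With it at its bound the medians over the 69 genes were -0.53 in Control and -0.58 in Salt.

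**Figure D1:**
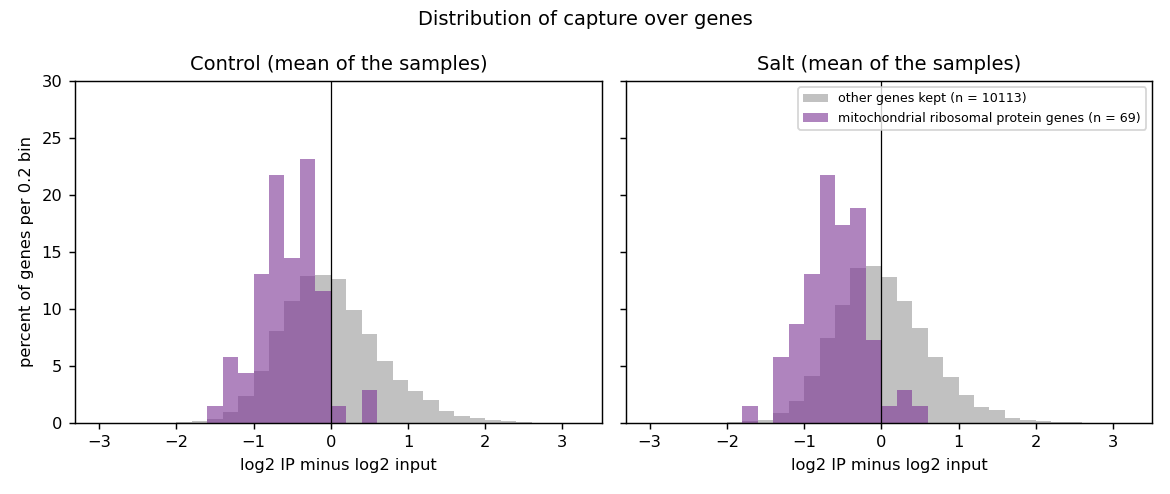
Percent of genes in bins of 0.2 of log2 IP minus log2 input (x axis), mean of the 2 samples, in Control (left) and Salt (right), for the 69 mitochondrial ribosomal protein genes (purple) and the 10113 other genes kept (grey). The purple bars lie mostly left of 0, with medians of -0.57 and -0.63, while the grey ones centre near 0.

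The size of the set's shift depended on scaling. With arrays scaled to one median in place of quantile normalization, the median over all probes was -0.16 in Control and -0.15 in Salt, against -0.03 and -0.02, and the median over the 69 genes was -0.70 and -0.75. The split of all calls then changed from 49.7% to 37.7% higher in Control and from 50.9% to 36.8% in Salt. With IP and input arrays normalized apart, 59.5% and 61.2% of all calls were higher, and the 69 genes had medians of -0.49 and -0.52. The set was lower than all genes under each of these. Precision rests on few arrays: without Control replicate 1 the number of probes called in Control was 14, and without Control replicate 2 it was 7, all lower, where 3.98% and 2.27% of all probes were called lower, since the remaining sample is then tested alone with the spread of the salt samples. Without either salt replicate it was 71 (68 lower and 3 higher), where 27.97% of all probes were called lower, so the control calls move with which libraries set the spread.

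Markers of cell types also differed between IP and input, and their part in the lower capture was not tested. Summed intensity of the 10 hypothalamic neuron markers kept was 9518 to 11364 on the input arrays and 6032 to 7796 on the IP arrays. For 5 of 6 general neuron markers (Rbfox3 had no probe matched here) it was 10829 to 12268 in the input and 8518 to 10276 in the IP, and for 6 of 6 astrocyte markers 6154 to 7782 and 3890 to 7200. The sums of these 3 lists thus lay lower in the IP, the astrocyte sum with overlapping ranges. They add raw intensities and follow the brightest genes, and single genes differed. Of the hypothalamic neuron genes 7 were called lower and 0 higher in Control, and 8 and 2 in Salt. Of the 5 general neuron genes 1 was called lower in each group and 0 higher. No astrocyte gene was called in Control, and 1 was called higher in Salt. Over all genes 20.9% (Control) and 18.6% (Salt) were called lower, 19.4% and 18.2% higher. Oligodendrocyte markers (6 of 6) gave 13860 to 16355 in the input and 10851 to 14036 in the IP, microglial markers (3 of 6) 770 to 957 and 561 to 759. Ependymal markers (3 of 5) were lower in the IP, at 799 to 1055 against 1490 to 1742. Of endothelial markers only Cldn5 and Flt1 passed, at 260 to 288 in the input and 274 to 458 in the IP. Red cell markers (Hba-a1 and Hbb-b1, without Alas2) ran the other way, at 751 to 1322 in the input and 1815 to 2585 in the IP.

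By role, genes of both subunits were counted against the share of all genes called, which was 20.9% lower and 19.4% higher in Control and 18.6% and 18.2% in Salt. Of the 44 large subunit genes kept (Mrps30 and Mrps18a, named for the small subunit but part of the large one, among them), 29 fell (65.9%) and 1 rose in Control, with a median of -0.65, and 28 fell (63.6%) and 1 rose in Salt, with a median of -0.64. Of the 25 small subunit genes, 11 fell in Control (44%) and 14 in Salt (56%), with medians of -0.42 and -0.54. Split by descent, 29 of the 42 genes with a bacterial counterpart fell in each group (69.0%), with medians of -0.67 and -0.65. Of the 24 mitochondrion-specific genes, 8 fell (33.3%) and 1 rose in Control and 10 fell (41.7%) and 1 rose in Salt, with medians of -0.36 and -0.46. This split does not cover all 69 genes. Mrpl55, among the largest falls (-1.29 in Control and -1.05 in Salt), was placed in neither line of descent and is in neither count. The differences between subunits and between lines of descent were not tested.

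**Figure D2:**
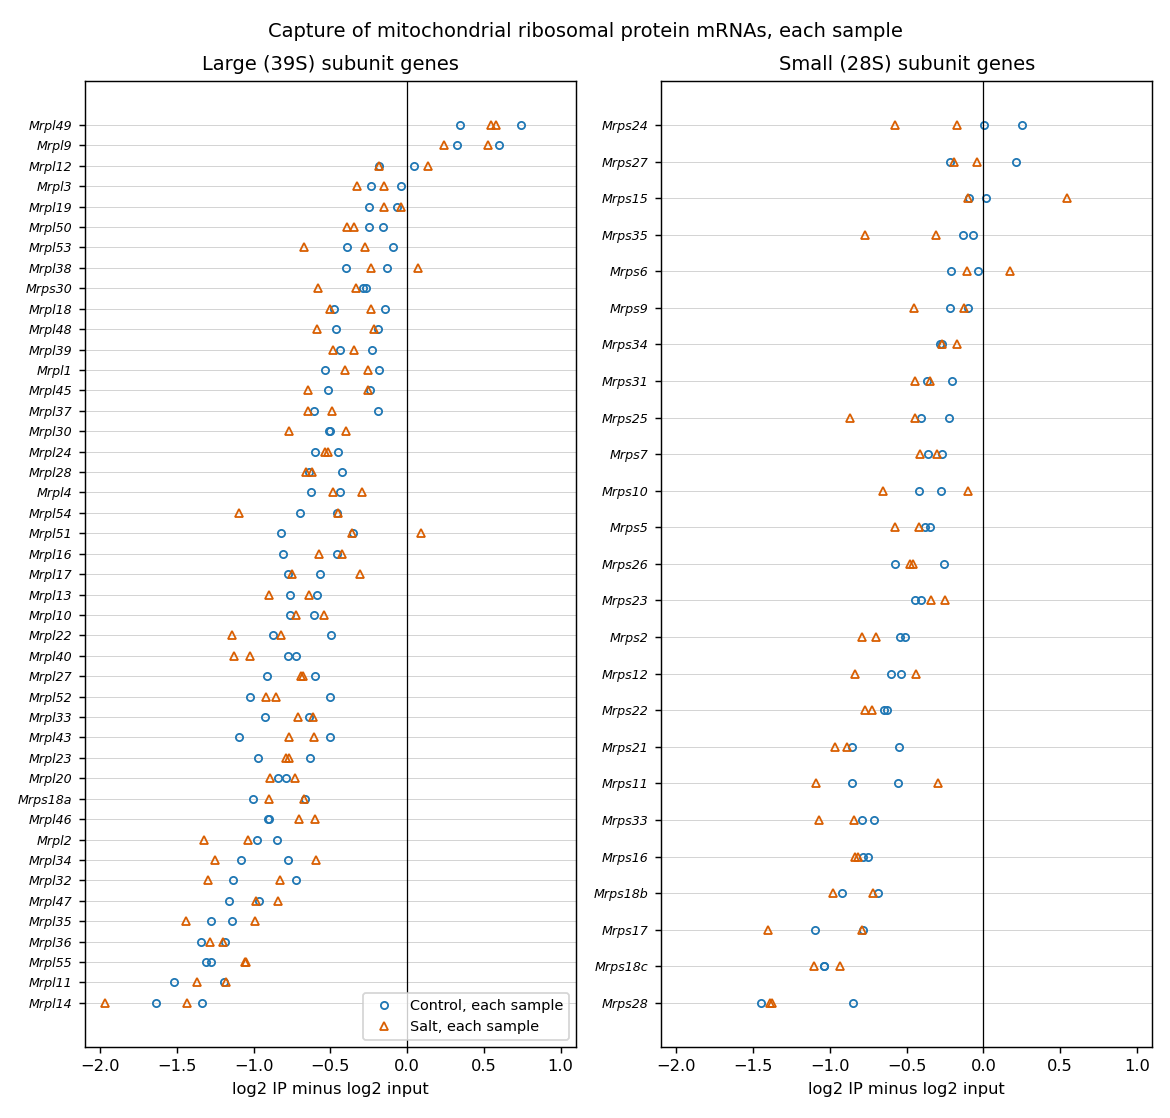
Log2 IP minus log2 input (x axis) of each mitochondrial ribosomal protein gene kept, 1 point per sample, for Control (blue circles) and Salt (orange triangles), with large subunit genes on the left and small subunit genes on the right, ordered by the Control mean. Mrpl32, detected on no IP array, is drawn at its fitted values. Most points lie below 0, from Mrpl14 at the bottom, down to -1.97 in Salt replicate 1, to Mrpl49 at the top, where all 4 points lie above 0.

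Among large subunit proteins, Mrpl14, a core protein with a bacterial counterpart, was captured least. Its intensity was 373 and 309 on the control input arrays and 211 and 161 on the control IP arrays, and 377 and 319 against 165 and 186 in the salt samples. On every IP array it was dimmer than on every input array. Log2 IP minus input was -1.34 and -1.63 in Control (mean -1.49 ± 0.19 SE, 2.80-fold lower, adjusted p = 0.0017) and -1.97 and -1.43 in Salt (-1.70 ± 0.19, 3.25-fold lower, adjusted p = 0.0019).

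Mrpl11, the counterpart of the bacterial protein at the base of the stalk that engages translation factors, showed the same order. Its intensity was 556 and 489 in the control input, 306 and 232 in the control IP, 605 and 515 in the salt input and 298 and 294 in the salt IP. Input and IP did not overlap. The mean difference was -1.36 ± 0.17 in Control (2.56-fold lower, adjusted p = 0.0016) and -1.28 ± 0.17 in Salt (2.42-fold lower, adjusted p = 0.0025). Mrpl12, which forms the stalk beside it, did not pass. Its log2 values were -0.18 and 0.05 in Control and 0.14 and -0.18 in Salt, on both sides of 0. Its Control mean was -0.07 ± 0.17, adjusted p = 0.77.

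Other large subunit genes among the 10 largest falls in Control were Mrpl55 (-1.29 ± 0.15), Mrpl36 (-1.27 ± 0.15), Mrpl35 (-1.21 ± 0.17) and Mrpl47 (-1.06 ± 0.16), with adjusted p from 0.0014 to 0.0026. In Salt these genes stood at -1.05, -1.24, -1.22 and -0.91, and each was called there too. Mrpl36 and Mrpl35 carry the names of their bacterial counterparts, and Mrpl47 corresponds to a protein that lies near the exit of the peptide tunnel. Mrpl32, which the mitochondrial m-AAA protease trims before it joins the ribosome in mouse and yeast, was detected on 1 of 2 input arrays of each group and on no IP array. It thus passed the filter through input arrays alone, which favours a fall. Its calls in limma (lower in both groups, adjusted p = 0.0076 and 0.0055) are therefore no support. For its size only an approximate bound was computed, 1.43-fold lower in Control and 1.27-fold lower in Salt. That bound takes in 1 input array per group without detection. The place of Mrpl32 among the largest falls is not settled. Mrpl53 (-0.24 and -0.47) did not pass in either group.

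In Salt the 10 largest falls also took in Mrpl2 and Mrpl40. Mrpl2, whose bacterial counterpart lies close to the peptidyl transferase centre, had an intensity of 863 and 584 in the salt input and 404 and 349 in the salt IP. Its difference was -1.18 ± 0.16 in Salt (2.26-fold lower) and -0.91 ± 0.16 in Control, called in both. Mrpl40, a mitochondrion-specific protein, was at -1.07 ± 0.15 in Salt and -0.75 ± 0.15 in Control, again called in both. Other members of the large subunit were closer to 0. Mrpl45, which in mammals lies at the tunnel exit facing the inner membrane, gave -0.38 ± 0.17 in Control and -0.45 ± 0.17 in Salt, and neither passed (adjusted p = 0.115 and 0.0744).

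A pair of large subunit genes went against the rest. Mrpl49, a mitochondrion-specific protein, had an intensity of 3220 and 2330 in the control input and 3624 and 3285 in the control IP. In the salt samples it was 3088 and 2629 in the input and 3981 and 3384 in the IP. Its IP exceeded its input within each sample. The log2 difference was 0.54 ± 0.17 in Control (1.46-fold higher, adjusted p = 0.0347) and 0.56 ± 0.17 in Salt (1.48-fold higher, adjusted p = 0.0333). This call was fragile, being lost with median scaling (0.15 and 0.14), with IP and input arrays normalized apart (0.36 and 0.37), with the mean of its probes (0.25 and 0.30) and without either control replicate in both groups, and without Salt replicate 1 in Salt. With the deposited ratios it was lost in Control (adjusted p = 0.0507). Of its 4 probes only the brightest was called, and the other 3 gave 0.42, 0.04 and 0.01 in Control. Mrpl9 had all 4 samples above 0 as well (0.32 and 0.60 in Control, 0.24 and 0.53 in Salt), but did not pass (0.46 ± 0.17, adjusted p = 0.0591, and 0.38 ± 0.17, adjusted p = 0.105). It did pass in Control in 7 of the other settings tried and in Salt in 2.

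Among small subunit proteins, Mrps28 stood lowest. It had an intensity of 653 and 565.8 in the control input, 415 and 269 in the control IP, 689 and 662 in the salt input and 333 and 322 in the salt IP. All IP values lay below all input values. The difference was -1.15 ± 0.19 in Control (adjusted p = 0.0035) and -1.38 ± 0.19 in Salt (adjusted p = 0.0026). Mrps17, with a bacterial counterpart, fell to -0.94 ± 0.19 in Control and -1.09 ± 0.19 in Salt. Without Control replicate 2 alone, Mrps28, Mrps17, Mrps18c, Mrpl35, Mrpl47 and Mrpl32 kept their direction but missed the threshold in Control (adjusted p from 0.0504 to 0.164), and Mrps17 did so without Control replicate 1 too (0.129).

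The 3 mammalian homologues of a single bacterial protein, Mrps18a, Mrps18b and Mrps18c, were all lower in the IP. Mrps18c had an intensity of 3193 and 2480 in the control input and 1486 and 1131 in the control IP, and 3222 and 2685 against 1397 and 1344 in the salt samples. Its log2 difference was nearly equal in the 4 samples, at -1.04 and -1.04 in Control and -1.10 and -0.93 in Salt. The means of Mrps18b were -0.80 ± 0.16 and -0.85 ± 0.16, and those of Mrps18a, which sits in the large subunit, -0.83 ± 0.17 and -0.78 ± 0.17. Each of the 3 was called in both groups on the probe that represents it, while the other probe of Mrps18b (-0.28 and -0.36) was called in neither.

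Small subunit proteins with a known role in decoding or disease were mixed. Mrps12, the counterpart of the bacterial protein that lines the decoding site, fell by 0.57 in Control and by 0.64 in Salt. Mrps2 (-0.53 and -0.74), Mrps16 (-0.77 and -0.83) and the mitochondrion-specific Mrps22 (-0.64 and -0.75) were called in both groups, and inherited loss of MRPS16 or MRPS22 in humans causes a respiratory chain deficiency. In contrast, Mrps7 (-0.32 and -0.36), Mrps34 (-0.28 and -0.22) and Mrps27 (-0.0043 and -0.12), a protein with pentatricopeptide repeats, did not pass in either group. All 4 samples of Mrps34 lay below 0. The large subunit genes Mrps30 (-0.28 and -0.46) and Mrpl3 (-0.14 and -0.24) did not pass either. Mrps24 lay at 0.25 and 0.00 in Control, where its mean of 0.13 did not pass and was -0.075 with median scaling, and at -0.18 and -0.57 in Salt. Mrps15 had a mean of 0.22 ± 0.19 in Salt that did not pass. It rested on Salt replicate 1, without which the value was -0.10, while without Salt replicate 2 it was 0.54 and passed (adjusted p = 0.0476).

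Probes of a gene did not always share a call. Of the 21 genes with several probes kept, all probes were called lower for 7 in Control and 5 in Salt, none was called for 5 and 6, and only some were called for 9 and 10. In no gene were probes called in opposite directions. For 1 gene, Mrpl3, the signs differed, with 2 probes at -0.14 and 0.32 in Control and -0.24 and 0.20 in Salt, none called. The 3 probes of Mrpl13 (-1.28 to -0.67) and of Mrpl51 (-1.06 to -0.59) were all called lower in Control, as were both of Mrps33 (-1.36 and -0.75), and those of Mrpl13 and Mrps33 also in Salt. The lowest probe of Mrpl13 was detected on no control IP array, so its fall there is given by a bound, at least 2.19-fold.

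The order of the genes was alike in both groups. Across the 69 genes the Control and Salt means correlated at r = 0.91 (Spearman rho 0.90), against 0.92 over all genes, and replicates within a group at 0.82 in Control and 0.76 in Salt. The points share arrays and normalization, and genes are not independent replicates. Genes with and without the promoter motifs can be set side by side. Of 29 kept with at least 1 of the 3 motifs, 19 fell in Control and 19 in Salt, with medians of -0.68 in each. Of 32 with none, 17 and 19 fell, with medians of -0.51 and -0.55. Over all genes 20.9% and 18.6% fell. The motifs differed. Control and Salt medians were -0.68 and -0.68 with the ETS letters (-0.51 and -0.58 without) and -0.71 and -0.69 with the YY1 letters (-0.58 and -0.64 without). The 3 genes with the NRF1 core lay higher, at -0.33 and -0.42 (-0.61 and -0.64 without). These differences were not tested.

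**Figure D3:**
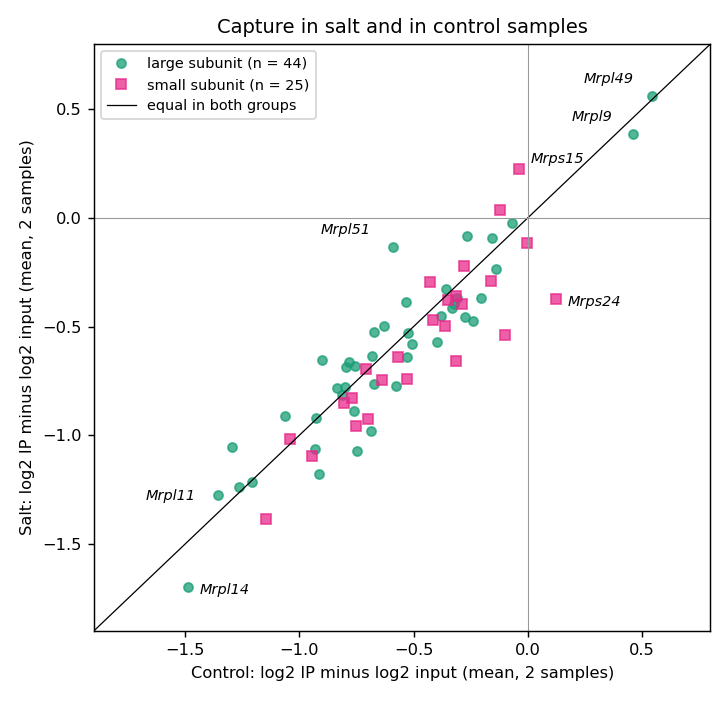
Mean log2 IP minus log2 input in Salt (y axis) against Control (x axis) for the 69 genes, 2 samples each, with large subunit genes as green circles, small subunit genes as pink squares and the line of equal values. The points follow the line, from Mrpl14 at the lower left to Mrpl49 at the upper right, and Mrps24 and Mrpl51 lie farthest to either side of it among the genes named.

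The ratio of IP to input in Salt against Control asked whether the salt load altered the capture of these mRNAs. No mitochondrial ribosomal protein probe passed in limma (0 of 100, with 0% of all probes called), and 1 probe, the dimmer of 2 for Mrpl45, had an unadjusted p under 0.05, against 2.73% of all probes. The median over the 69 genes was -0.06, against 0.01 over all genes, and values ran from -0.50 to 0.45. The 2 groups did not overlap for 17 genes, 4 higher and 13 lower (24.6% of the 69), against 26.8% of all probes, 13.7% higher and 13.1% lower.

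The largest differences of the ratio were small next to their errors. Mrps24 had ratios of 0.25 and 0.00 in Control and -0.18 and -0.57 in Salt, a difference of -0.50 ± 0.24, and Mrps35 and Mrps25, both mitochondrion-specific, differed by -0.44 ± 0.24 and -0.34 ± 0.24. On the other side stood Mrpl51 (-0.82 and -0.35 in Control, 0.09 and -0.36 in Salt), with a difference of 0.45 ± 0.27 and overlapping groups. Mrps15 (0.26 ± 0.27, -0.063 without Salt replicate 1) and Mrpl46 (0.25 ± 0.22) followed. Each had an adjusted p of 1.00 in limma. The 95% interval of the difference lay within 2-fold either way for 66 of the 69 genes, all but Mrpl51, Mrps24 and Mrps35, and within 1.5-fold for 15.

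In captured RNA alone, 0 of the 100 probes passed between Salt and Control, where 0.134% of all probes were called, all higher. The median over the 69 genes was -0.02, and values ran from -0.37 to 0.49. Mrpl51 (0.49 ± 0.26), Mrps11 (0.31 ± 0.27, -0.025 without Control replicate 2) and Mrpl38 (0.30 ± 0.22) had the largest positive values. Mrps25 (-0.37 ± 0.16), Mrps24 (-0.34 ± 0.19) and Mrps35 (-0.33 ± 0.17) had the largest negative ones, and none passed (adjusted p from 0.89 to 1.00). Mrps25 alone had an unadjusted p under 0.05 in limma (1 of the 100 probes, against 5.58% of all probes). Its intensity was 395 and 332 on the control IP arrays and 294 and 309 on the salt IP arrays. Groups did not overlap for 8 genes higher and 11 lower (27.5%, against 30.8% of all probes, 15.2% higher and 15.6% lower). The 95% interval lay within 2-fold for 67 of 69 genes and within 1.5-fold for 52.

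In total RNA of the hypothalamus no probe passed either. Of the 100 probes 0 passed in the input, against 0.0141% of all probes, and 0 had an unadjusted p under 0.05, against 2.41%. The median was 0.04, against 0.00 over all genes, with a range of -0.43 to 0.30. Mrpl4 was lowest (-0.43 ± 0.21), with an intensity of 429 and 320 in the control input and 316 and 263 in the salt input. Its groups did not overlap, but by a narrow margin in intensity. Mrpl9 and Mrpl46 (-0.14 each) came next, and Mrps11 (0.30 ± 0.27), Mrps28 (0.20 ± 0.20) and Mrpl48 (0.18 ± 0.21, -0.051 without Salt replicate 2) were at the other end. Groups did not overlap for 13 genes higher and 3 lower (23.2%). Over all 10182 genes the share was 25.4%, with 1371 higher and 1214 lower. Intervals lay within 2-fold for all 69 genes and within 1.5-fold for 58. All 3 comparisons of Salt with Control share samples, so their values are not independent of each other.

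**Figure D4:**
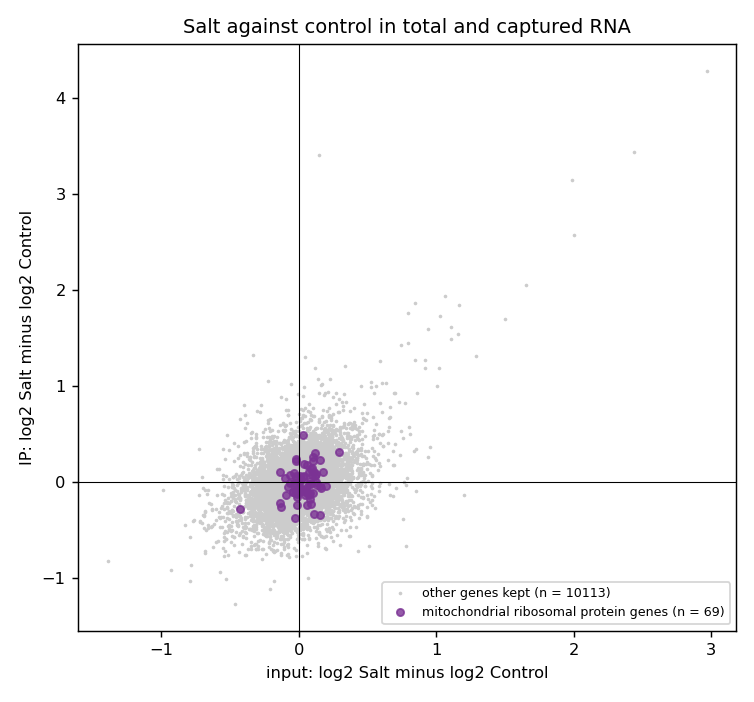
Log2 Salt minus log2 Control in the IP (y axis) against the input (x axis), 1 point per gene, for the 69 mitochondrial ribosomal protein genes (purple) and the 10113 other genes kept (grey). The purple points stay between -0.43 and 0.30 on the x axis and between -0.37 and 0.49 on the y axis, while some grey points reach above 2 on both axes.

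Partners of the mitochondrial ribosome are set beside it, and their counts read against the same shares of all genes (20.9% lower and 19.4% higher in Control, 18.6% and 18.2% in Salt). Of 6 measured subunits that carry other names, 3 fell (50%) and 1 rose in Control (median -0.48) and 2 fell (33.3%) in Salt (median -0.43). Chchd1 (-0.61 and -0.68) and Mrpl57 (-0.63 and -0.66) were called lower in both groups and Dap3 (-0.53) in Control, whereas Ptcd3, a small subunit protein with pentatricopeptide repeats, was higher in Control (0.51 ± 0.16) and did not pass in Salt (0.30). The listed symbols Gadd45gip1 and Mrpl59 gave no value here.

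Factors that drive mitochondrial translation mostly lay on the other side of 0. Of 13 measured, 7 rose (53.8%) and 1 fell in Control (median 0.58) and 5 rose (38.5%) in Salt (median 0.34). Lrpprc, which stabilizes mitochondrial mRNAs, rose by 1.31 ± 0.16 in Control and 1.28 ± 0.16 in Salt, Guf1, an elongation factor, by 1.18 and 0.79, Gfm2, which acts in ribosome recycling, by 0.96 and 0.62, and the initiation factor Mtif3 by 0.90 and 0.75. Mrrf, the recycling factor, was the one that fell (-0.51 in Control, and -0.41 in Salt without passing).

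Mitochondrial aminoacyl-tRNA synthetases and related enzymes, which charge tRNAs, gave calls in both directions, at shares near or below those of all genes. Of 16, 3 rose (18.8%) and 2 fell (12.5%) in Control (median 0.26), and 1 rose (6.25%) and 3 fell (18.8%) in Salt (median 0.22). Vars2 rose (1.16 and 1.13), and Gatc, a subunit of the amidotransferase that makes glutaminyl-tRNA (-1.11 and -0.98), and Yars2 (-0.62 in each) fell in both groups. Of 14 assembly factors, 2 rose (14.3%) and 5 fell (35.7%) in Control (median -0.24) and 4 fell (28.6%) in Salt (median -0.12). Tfb1m, an rRNA methyltransferase (-0.91 and -0.71), Mterf3 (-0.86 and -0.68), Mterf4 (-0.69 and -0.76) and Nsun4 (-0.62 and -0.90) fell in both. Of 15 genes of mitochondrial transcription, DNA replication and biogenesis, 4 rose (26.7%) and 2 fell (13.3%) in Control (median 0.04) and 5 rose (33.3%) and 3 fell (20%) in Salt (median 0.12). The DNA polymerase gene Polg (1.27 and 0.90), the helicase gene Twnk (1.13 and 1.43) and the RNA polymerase gene Polrmt (0.93 and 1.15) rose in both, and Tefm, a transcription elongation factor, fell (-0.81 and -0.69). No gene of these 5 lists was called between Salt and Control in the IP, the input or their ratio.

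Other abundant sets that work with the mitochondrial ribosome are set beside it. Of 56 cytosolic ribosomal protein genes, 20 fell in Control (35.7%) and 18 in Salt (32.1%), with medians of -0.33 and -0.35 and none higher. Of 70 nuclear respiratory chain genes, 38 fell in Control (54.3%) and 37 in Salt (52.9%), with medians of -0.49 and -0.51 and none higher, beside 58.0% and 60.9% of the mitochondrial ribosomal protein genes. In these sets too, 0 genes were called between Salt and Control.

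**Figure D5:**
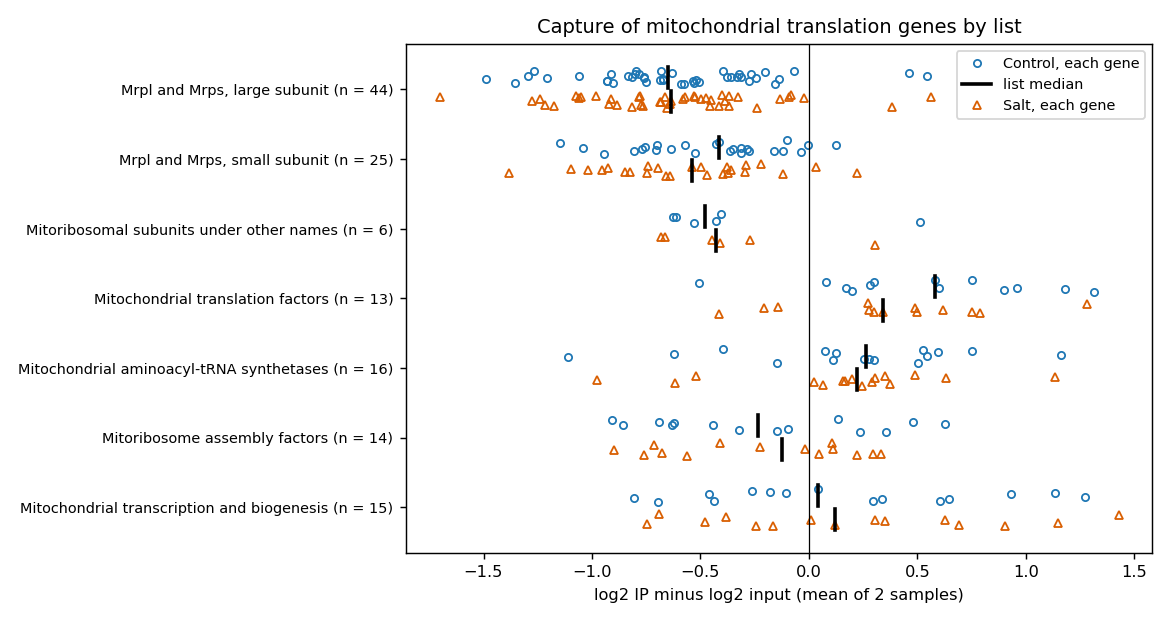
Log2 IP minus log2 input (x axis, mean of 2 samples) of each gene in 7 lists, for Control (blue circles) and Salt (orange triangles), with the list median as a black bar and the points spread vertically for legibility. The rows of the large and small subunit lie mostly below 0, with medians from -0.42 to -0.65, and the translation factor row mostly above it, with medians of 0.58 and 0.34.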

How the data were processed

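RNA of ribosomes captured with the pS6 244/247 antibody and total RNA were measured in 4 samples (2 Salt, 2 Control, grouped by their titles) on 8 Illumina BeadArrays. Per the file headers, the authors deposited linear probe intensities, each with the detection p-value of that probe on that array. The intensities carry no background subtraction, as undetected probes had medians of 99.3 to 112.2. The authors also deposited the IP to input ratio of each sample, equal to the quotient of the intensities. The submitters' processing notes name GenomeStudio, whose version and settings are not given in the sources used here. The labels' protocols give amplification with the Ovation kit and biotin labelling, and amplified signal can differ from mRNA amount.

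Intensities were background-corrected with limma's nec (limma 3.58.1, R 4.3.3), which derives negative controls from detection p-values (offset 16), then quantile-normalized over the 8 arrays and put on the log2 scale. A probe was kept where 2 or more arrays gave it a detection p under 0.01. The within-sample difference, log2 IP minus log2 input, entered a limma model (lmFit, eBayes) with both groups, and the 8 arrays with 4 group means gave the IP and the input of Salt against Control. The fits had 2 and 4 residual degrees of freedom before moderation. Errors are moderated standard errors (SE), n is 2 samples per group, and tests are two-sided. Adjusted p is by Benjamini-Hochberg across all 14199 probes kept, with calls made under 0.05. A gene is represented by its brightest probe kept. Probe intensity was ranked for that choice and for the choice of genes named below, and is no measure of mRNA amount between probes. A fold against a group in which a probe was detected nowhere is given as a bound.

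All 72 symbols are current in RefSeq. Genes named with values are the called genes, up to 10 each way by size in each comparison, filled up to 3 each way where fewer than 5 passed, together with the 3 brightest and 3 dimmest input probes, genes whose probes disagree, genes detected nowhere and a fixed set by role. At most 4 called genes are named for each other list. The members and lists were chosen with earlier results of these data known. The cytosolic ribosomal protein and respiratory chain sets were defined by symbol pattern. Lists are described by counts and medians, with no test of their own. The fit was tested on simulated data. Other background corrections, scalings, filters, the deposited ratios, probe means, the replicate number as a block and leaving out each sample were tried.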

Additional observations from a re-analysis of the deposited data

How the results depend on the processing

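Each comparison of Salt with Control had 0 of the mitochondrial ribosomal protein probes called under each setting run, and the medians of IP minus input over the 69 genes stayed below 0 under each. In Control and Salt, those medians were -0.49 and -0.52 with IP and input arrays normalized apart, -0.43 and -0.45 with the deposited ratios, -0.70 and -0.75 with median scaling, -0.45 and -0.48 with no background correction and -0.49 and -0.52 with normexp without negative controls. Leaving out one sample at a time gave medians of -0.57 to -0.52 in Control and -0.66 to -0.57 in Salt. The number of probes called then ranged from 7 to 71 in Control and from 44 to 53 in Salt, with 2.27% to 27.97% and 12.9% to 20.6% of all probes called lower, where a lone sample is assumed to vary like the other group. With median scaling, 73 and 74 probes were called lower, against 27.1% and 26.2% of all probes. Mrps24 in Control changed sign under median scaling (-0.075). Among values that had not passed, leaving out one sample changed the sign of Mrps15 in the ratio (-0.063 to 0.58) and in Salt IP minus input (-0.10 to 0.54), of Mrps11 in the IP (-0.025 to 0.64) and of Mrpl48 in the input (-0.051 to 0.41). Over named genes, 612 values under an alternative kept direction and side of the threshold, 19 lost their call, 10 gained one and 5 changed sign. The cause was not tested. The replicate numbers were not treated as pairs. Deviations of same-numbered samples correlated at 0.01 in IP minus input, 0.14 in the IP and -0.23 in the input. With 2 samples per group these values cannot settle whether the numbers pair the samples. With the replicate block, 55 and 53 probes were called in Control and Salt, against 58 and 57. With crossed numbers, chosen after seeing the data, they were 58 and 56. A block for slide was not run, since the headers give no slide. Mrpl32 and single probes of Mrpl13, Mrpl45, Mrpl47 and Mrps31 were detected on no IP array of a group, which limits them to bounds there.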

Other observations

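Mrpl45 had a dimmer second probe that gave another value than the brighter one described in the report. It stood at -0.70 and -0.95 in the control samples and at -0.45 and 0.30 in the salt samples. It was called lower in Control (-0.82, adjusted p = 0.0166 in limma) and not in Salt (-0.08). Its ratio differed between Salt and Control by 0.75 with an unadjusted p = 0.0341, which did not pass after adjustment. The probe was detected on 1 of 2 control input arrays and on no control IP array. In Control only an approximate bound of 1.45-fold lower holds, which takes in 1 input array without detection. The brighter probe of Mrpl45 differed by -0.07.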
